A study of Mus musculus with 23 samples.

Results

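The genes described here encode haemoglobin and other proteins of developing red blood cells, and they were measured in dendritic cells sorted from mouse spleen. Their rule names 9 genes whose reads were already known to be high in libraries from mice given the treatment labelled TLI. Of these, 8 were found by symbol among the 47729 genes of the deposited count table, and 1 is not analysed here. Hba-a1 and Hba-a2 encode the α chain of haemoglobin, and Hbb-bs and Hbb-bt encode its β chain. Alas2 encodes the red cell form of the enzyme that starts haem synthesis, Rhd a membrane protein of the Rh blood group complex, Slc4a1 the band 3 anion exchanger of the red cell membrane, and Epor the receptor for erythropoietin. The members were chosen by their high counts in these TLI libraries, so their levels by treatment and by batch are given as a description without a test.

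All libraries came from wild type Balb/C mice, and the labels name no other allele or agent than TLI, which they do not spell out. Spleen cells of pooled mice were sorted into DC1a (CD8hi CD172-), DC1b (CD8Int CD172+), DC2 (CD8lo CD172hi) and DC3 (CD8- CD172lo) cells. Batch 1 holds untreated pools 1 and 2 (8 libraries) and TLI pools 1 and 2 (7 libraries, with DC2 from pool 1 alone), and batch 2 holds TLI pools 3 and 4 (8 libraries). A replicate number below is the number of the pool, so libraries of a pool share their mice and the number of independent pools is 2 for each treatment in a batch. Batch 2 has no untreated library, so a difference between TLI libraries of batch 2 and untreated libraries cannot be told apart from a difference between batches. Total counts ran from 19256447 to 36997890 per library, with a median of 27199618. Markers of dendritic cells were present in every library, at a summed 10619 to 102051 counts per 1000000 counts of the library (CPM) over 7 genes.

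In red cell precursors, the transcription factors GATA1 and KLF1 switch on the globin genes, the enzymes of haem synthesis and the proteins of the red cell membrane together. Erythropoietin acts through its receptor on early precursors, whereas globin mRNA accumulates late and remains in reticulocytes after the nucleus is lost. The mouse spleen makes red cells in adult life and increases this output under stress, and dendritic cells are not known as a source of haemoglobin. In RNA from a sorted population, a few cells rich in a transcript and a low level in many cells cannot be told apart.

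The copies of each chain were nearly the same in the reference, which limits what can be said of each copy. Hba-a1 (chromosome 11, 32283511 to 32284465, plus strand) and Hba-a2 (chromosome 11, 32296489 to 32297298, plus strand) differed at 1 of 429 coding bases, C381T, counted from 1 at the A of the start codon with the Hba-a1 base given first. Hbb-bs (chromosome 7, 103826534 to 103828096, minus strand) and Hbb-bt (chromosome 7, 103812524 to 103813996, minus strand) differed at 1 of 444 coding bases, C417T, with the Hbb-bs base first. These coordinates and transcripts are those of GENCODE on GRCm38. The 41 coding bases around each difference are shown, with the differing base in capitals, because they hold the letters that tell the copies apart within the coding sequence:
Hba-a1: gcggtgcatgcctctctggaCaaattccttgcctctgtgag
Hba-a2: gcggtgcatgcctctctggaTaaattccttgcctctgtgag
Hbb-bs: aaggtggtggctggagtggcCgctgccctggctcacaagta
Hbb-bt: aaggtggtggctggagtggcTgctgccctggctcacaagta
Of all 76-base windows along the main transcript, 62.0% of those of Hba-a1 occurred in Hba-a2 and 80.8% of those of Hba-a2 occurred in Hba-a1. For the β chain, 64.2% of the Hbb-bs windows occurred in Hbb-bt and 56.5% of the Hbb-bt windows occurred in Hbb-bs. The count of each copy is therefore uncertain, and the sum of the 4 genes is used below. The reference is that of a mouse strain other than Balb/C, and the copies that a strain carries can differ, which was not tested.

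The members lie on different chromosomes, apart from the neighbouring copies, Slc4a1 on chromosome 11 (102348824 to 102366203, minus strand) and the α chain genes. Alas2 lies on the X chromosome (150547375 to 150570638, plus strand), where it overlaps Apex2 on the other strand, Rhd on chromosome 4 (134864536 to 134896172, plus strand) and Epor on chromosome 9 (21958897 to 21963506, minus strand). The 160 bases before the RefSeq start site (GRCm38.p6) are shown for 6 of the 7 members with a promoter entry, because these genes were high in the same libraries, and motifs common in promoters of red cell genes are in capitals. RefSeq and GENCODE starts differ, so the bases shown fall within the GENCODE span of Hba-a1 and Hbb-bs, and in part within that of Hbb-bt and Alas2. The Hba-a2 promoter is not printed, since it shared an unbroken run of 247 bases with that of Hba-a1.
Hba-a1, chr11:32283512-32283671, plus strand: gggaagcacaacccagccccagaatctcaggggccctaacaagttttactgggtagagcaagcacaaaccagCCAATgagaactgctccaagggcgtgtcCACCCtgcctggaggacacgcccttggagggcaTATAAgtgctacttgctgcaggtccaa
Hbb-bs, chr7:103827929-103828088, minus strand: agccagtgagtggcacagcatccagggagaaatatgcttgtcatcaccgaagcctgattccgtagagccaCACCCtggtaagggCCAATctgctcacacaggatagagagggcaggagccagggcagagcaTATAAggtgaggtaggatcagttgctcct
Hbb-bt, chr7:103813924-103814083, minus strand: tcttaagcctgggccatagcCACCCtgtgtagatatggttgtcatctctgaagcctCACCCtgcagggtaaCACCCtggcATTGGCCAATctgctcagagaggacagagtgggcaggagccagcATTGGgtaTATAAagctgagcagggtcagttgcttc
Alas2, chrX:150547257-150547416, plus strand: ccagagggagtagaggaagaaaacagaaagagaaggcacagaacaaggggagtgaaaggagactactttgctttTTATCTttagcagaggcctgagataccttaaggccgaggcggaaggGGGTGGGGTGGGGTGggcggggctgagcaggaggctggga
Rhd, chr4:134864376-134864535, plus strand: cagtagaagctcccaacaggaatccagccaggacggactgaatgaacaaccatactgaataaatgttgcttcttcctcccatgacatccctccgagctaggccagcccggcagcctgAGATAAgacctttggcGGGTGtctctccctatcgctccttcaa
Epor, chr9:21963577-21963736, minus strand: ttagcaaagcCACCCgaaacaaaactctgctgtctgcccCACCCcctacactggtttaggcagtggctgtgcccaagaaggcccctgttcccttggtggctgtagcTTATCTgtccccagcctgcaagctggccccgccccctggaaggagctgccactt

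The capitals mark 4 motifs, searched on both strands. They were CACCC (bound by KLF factors), the CCAAT box, the letters TATAA of the TATA box, and a GATA word, which is AGATA or else TGATA with the letter A or G after it. No marked matches overlapped each other. CACCC was found in 7 of 7 members with a promoter entry, against 38.6% of 27025 promoters of the same length. The globin promoters carried CCAAT and TATAA, and the GATA words were found in Alas2, Rhd and Epor, at 54 to 49 bases before the start in Epor and 43 to 38 bases before it in Rhd. CCAAT was in 4 of 7 members against 26.4% of promoters, TATAA in 4 of 7 against 15.6%, and a GATA word in 3 of 7 against 17.5%. With 250 bases the GATA words were in 6 of 7 members against 27.1% of promoters. A match of letters is a description, and the α chain promoters are copies of each other.

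The 4 haemoglobin genes together made up 1.92% to 13.3% of all counts in the 7 TLI libraries of batch 1, and less than that in every other library. In TLI pool 1 they took 11.1% of the counts in DC1a cells, 6.21% in DC1b cells, 4.75% in DC2 cells and 13.3% in DC3 cells. In TLI pool 2 they took 2.37% in DC1a cells, 2.34% in DC1b cells and 1.92% in DC3 cells. Pool 1 was higher than pool 2 in each of the 3 populations that both had, the populations differed more within pool 1 than within pool 2, and the signal was present in each of the 4 populations.

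Among untreated libraries the share was 0.152% in DC1a, 0.00746% in DC1b, 0.227% in DC2 and 0.0144% in DC3 cells of pool 1. It was 0.0131% in DC1a, 0.0109% in DC1b, 0.00737% in DC2 and 0.00561% in DC3 cells of pool 2. The DC1a and DC2 libraries of untreated pool 1 stood above the other 6 untreated libraries, and the highest untreated library was still below the lowest TLI library of batch 1.

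In batch 2 the share was 0.0329% in DC1a, 0.195% in DC1b, 0.163% in DC2 and 0.0382% in DC3 cells of TLI pool 3. It was 0.0143% in DC1a, 0.712% in DC1b, 0.170% in DC2 and 0.0640% in DC3 cells of TLI pool 4. These 8 libraries overlapped the untreated ones, and in each of the 2 pools DC1b cells held the highest share and DC1a cells the lowest.

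**Figure D1:**
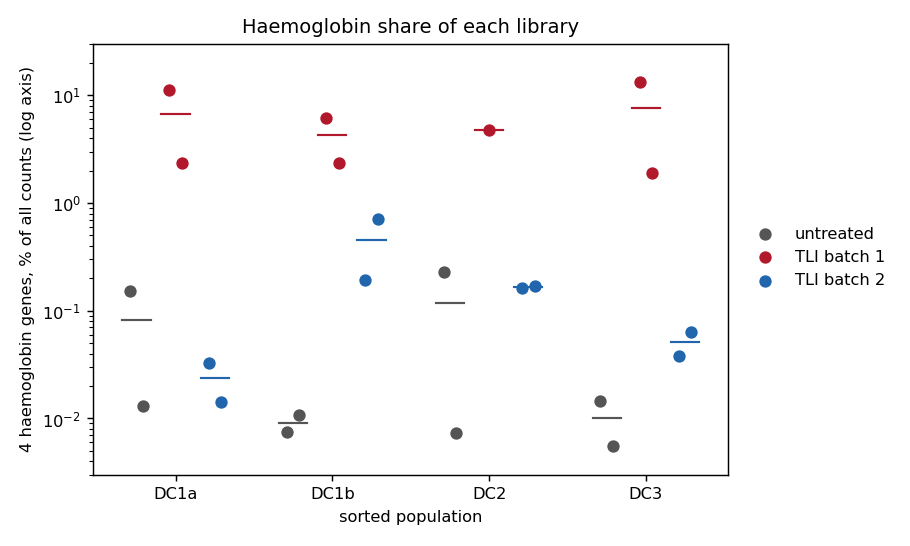
Share of all counts taken by Hba-a1, Hba-a2, Hbb-bs and Hbb-bt (percent, log axis) in each of the 23 libraries, by sorted population, with points for libraries and lines for means over the 1 or 2 libraries of a set. The 7 TLI libraries of batch 1 lie at 1.92% to 13.3%, above every untreated and every batch 2 library.

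Averaged over libraries, the summed haemoglobin level was 59940 ± 45423 CPM in TLI libraries of batch 1 (SD, n = 7), 547 ± 856 CPM in untreated libraries (SD, n = 8) and 1737 ± 2288 CPM in TLI libraries of batch 2 (SD, n = 8). The batch 1 mean was 109-fold that of untreated libraries and 34.5-fold that of batch 2. Within populations, the ratio of TLI batch 1 to untreated means was 81.6 in DC1a, 466 in DC1b, 40.5 in DC2 (1 TLI library) and 758 in DC3 cells. The order of these ratios followed mostly the untreated means, which ran from 91.7 CPM in DC1b to 1171 CPM in DC2 cells. TLI means of batch 1 ran from 42739 CPM in DC1b to 75931 CPM in DC3 cells. The DC1a and DC2 libraries of untreated pool 1 were the highest untreated ones. Batch 2 means were 49.5-fold the untreated ones in DC1b cells, 5.10-fold in DC3, 1.42-fold in DC2 and 0.286-fold in DC1a cells, and the libraries overlapped in DC1a and DC2.

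Each of the 4 globin copies showed the same division of libraries. Hba-a1 ran from 6404 to 45168 CPM (median 16767) in TLI libraries of batch 1, from 17.8 to 815 CPM (median 44.3) in untreated ones and from 41.6 to 2329.5 CPM (median 394) in batch 2. Hba-a2 ran from 5258 to 36755 CPM (median 13074), from 18.4 to 691 CPM (median 39.1) and from 36.3 to 2194 CPM (median 365) in the same order. For the β chain, Hbb-bs ran from 5349.7 to 36953 CPM (median 12943), from 6.15 to 572 CPM (median 28.6) and from 47.1 to 1754 CPM (median 226). Hbb-bt, the other β chain copy, ran from 2163 to 13811 CPM (median 4691), from 2.35 to 192 CPM (median 13.0) and from 18.4 to 846 CPM (median 97.7).

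The balance between the chains varied least in TLI libraries of batch 1. The α chain genes made up 59.4% to 62.9% of haemoglobin counts in the 7 TLI libraries of batch 1, 49.1% to 84.8% in untreated libraries and 54.3% to 76.3% in batch 2. Hba-a2 took 43.7% to 45.8% of α chain counts in TLI libraries of batch 1 and 41.3% to 50.9% in untreated ones. Hbb-bt took 26.6% to 28.8% of β chain counts in the former and 25.1% to 39.3% in the latter. Haemoglobin counts were 519232 or more in each TLI library of batch 1 and as low as 1419 in an untreated library, and the α chain share was 74.2% in untreated DC1a replicate 1, with 43635 such counts. Per kilobase of exon, Hba-a1 and Hba-a2 had mean levels of 24951 and 24284 CPM in TLI libraries of batch 1, Hbb-bs 22126 and Hbb-bt 9232.

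**Figure D2:**
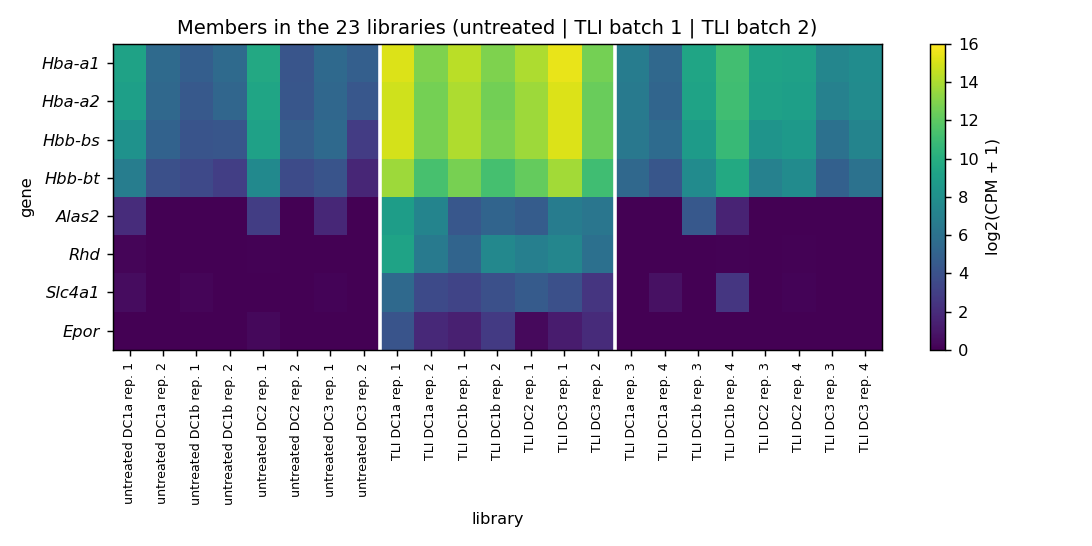
Level of the 8 members as log2(CPM + 1) (color) in the 23 libraries, with white lines between untreated, TLI batch 1 and TLI batch 2 libraries. The 4 globin genes have counts in every library, whereas Alas2, Rhd, Slc4a1 and Epor are at or near 0 in most libraries outside TLI batch 1.

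Alas2, which commits cells to haem synthesis, was highest in DC1a cells in batch 1 of TLI, but not in the other libraries. In TLI libraries of batch 1 it reached 476 and 149 CPM in DC1a cells of pools 1 and 2, 19.6 and 34.3 CPM in DC1b cells, 102 and 78.2 CPM in DC3 cells and 24.1 CPM in DC2 cells of pool 1. Untreated pool 1 had 3.03 CPM in DC1a, 6.39 CPM in DC2 and 2.41 CPM in DC3 cells, and the other 5 untreated libraries were at 0 counts, below which 3 counts could still lie undetected. In batch 2 the 2 DC1b libraries had 20.7 and 2.02 CPM, and the other 6 libraries were at 0. All 7 TLI libraries of batch 1 were above all untreated libraries, and they overlapped batch 2 through DC1b cells of pool 3. The mean was 85.2-fold that of untreated libraries. Without strand, reads of Alas2 and of Apex2 cannot be told apart where the genes overlap.

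Rhd was the member with the sharpest division. It reached 613 and 95.2 CPM in TLI DC1a cells of pools 1 and 2, 34.2 and 179 CPM in DC1b cells, 158 and 60.2 CPM in DC3 cells and 119.9 CPM in DC2 cells of pool 1. In the 16 other libraries it had 4 counts or fewer. Per kilobase of exon, the mean Rhd level in TLI libraries of batch 1 was 113 CPM and that of Alas2 was 52.5 CPM, with SDs of 124 and 67.0 over the same 7 libraries, and the difference was not tested.

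Slc4a1, which encodes the most abundant protein of the red cell membrane, was 43.3 and 11.2 CPM in TLI DC1a cells of pools 1 and 2, 8.84 and 14.2 CPM in DC1b cells, 14.3 and 4.54 CPM in DC3 cells and 23.3 CPM in DC2 cells of pool 1. Untreated libraries had at most 0.453 CPM, and batch 2 libraries at most 0.625 CPM apart from 4.70 CPM in DC1b cells of pool 4. Its level was therefore higher in each TLI library of batch 1 than in any untreated one, with an overlap with batch 2 through a DC1b library.

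Epor was the lowest member. It was 16.7 and 2.57 CPM in TLI DC1a cells of pools 1 and 2, 1.60 and 5.54 CPM in DC1b cells, 1.33 and 2.88 CPM in DC3 cells and 0.298 CPM (7 counts) in DC2 cells. It had 6 counts in untreated DC2 cells of pool 1 and 0 in the other 7 untreated libraries and in all 8 libraries of batch 2. The lowest TLI value in batch 1 and the highest untreated value therefore rest on 7 and 6 counts.

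The 4 members that are not globins did not keep a fixed proportion to haemoglobin. Per 1000000 haemoglobin counts, TLI libraries of batch 1 held 316 to 6268 counts of Alas2 (median 1468), 551 to 7674 of Rhd (median 3139), 107 to 606 of Slc4a1 (median 389.8) and 6.27 to 237 of Epor (median 109). Alas2 per haemoglobin was highest in DC1a cells of both pools, at 4283 and 6268, and lowest in DC1b cells of both, at 316 and 1468, with 507 in the DC2 library. DC3 cells of pool 1 had the highest haemoglobin share of all libraries but only 770 Alas2 counts and 9.997 Epor counts per 1000000 haemoglobin counts. DC1a, DC1b and DC3 cells differed little in haemoglobin share in pool 2, and their Alas2 proportions of 6268, 1468 and 4077 still differed. In untreated libraries Rhd stood at 91.7 per 1000000 haemoglobin counts or less, and in batch 2 at 40.6 or less, both below the lowest TLI value of batch 1. Most untreated libraries and TLI DC1a replicate 4 had only 1419 to 5278 haemoglobin counts and no Rhd count. There the 3 counts that a 0 allows would exceed a proportion of 551, so a lower Rhd proportion is not shown for them. The observed Alas2 and Slc4a1 proportions did not divide the libraries as those of Rhd did. Alas2 per 1000000 haemoglobin counts reached 16709 in untreated DC3 replicate 1 and 10593 in TLI DC1b replicate 3. Slc4a1 reached 1893 in untreated DC1b replicate 1 and 4358 in TLI DC1a replicate 4 of batch 2. Each of these values was above the gene's highest value in TLI libraries of batch 1, but those of Slc4a1 rest on 3 and 23 counts.

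**Figure D3:**
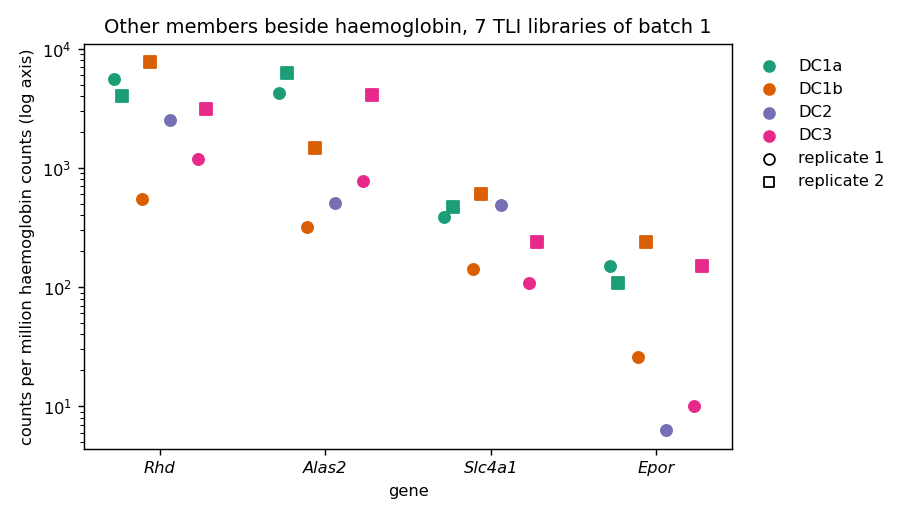
Counts of Rhd, Alas2, Slc4a1 and Epor per 1000000 haemoglobin counts (log axis) in the 7 TLI libraries of batch 1, colored by sorted population, with circles for replicate 1 and squares for replicate 2. Values for a gene spread widely across libraries, from 316 to 6268 for Alas2 and from 551 to 7674 for Rhd.

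Whether the members differed between the sorted populations is a comparison that the rule did not use. Each population was set against the mean of the other 3 within untreated mice and within TLI mice, in a quasi-likelihood fit by edgeR, with p-values adjusted by Benjamini-Hochberg over 19597 genes, and all 8 members passed the filter on low counts. None of the 32 comparisons in untreated mice and none of the 32 in TLI mice reached an adjusted p of 0.05, and 5 and 1 of them had an unadjusted p under 0.05. The 5 were all in DC2 cells, whose summed haemoglobin was 2269 CPM in untreated replicate 1 and 73.7 CPM in replicate 2. In untreated libraries Rhd had at most 4 counts, Epor at most 6 and Slc4a1 at most 13, and Alas2 was at 0 in 5 of 8. Comparisons of these genes in untreated mice could therefore hardly be called, and the lack of a call says little about them. Over all genes, 1.2% were called in DC1a, 0.99% in DC1b, 1.94% in DC2 and 0.469% in DC3 cells of untreated mice, and 2.76%, 1.17%, 2.37% and 0.811% in the same order in TLI mice. The smallest p in TLI mice was that of Alas2 in DC1b cells, with an unadjusted p of 0.0126 and an adjusted p of 0.231. Its fitted change was upward there, but its mean over TLI libraries was 19.1 CPM in DC1b against 156 CPM in DC1a cells. The mean was 45.1 CPM in DC3 and 8.02 CPM in DC2 cells. In batch 2, Alas2 had 746 and 68 counts in DC1b cells and 0 in the other populations. In untreated mice the smallest p was that of Epor in DC2 cells, with an unadjusted p of 0.0155 and an adjusted p of 0.205. DESeq2's Wald test called 3 of the untreated and 1 of the TLI comparisons, and without a filter on low counts edgeR called 1 of each. The shares over all genes above are those of the filtered edgeR fit, so these counts cannot be judged against them. Differences of the members between populations were thus not called by the test used here, and the biological coefficient of variation over all genes was 1.08.

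Other genes of the red cell programme, which were not in the rule, were tested between TLI and untreated libraries in the same fit, averaged over the 4 populations. The fit held a term for batch, so this contrast is at the level of batch 1. Some genes, such as Klf1 and Car1, were near 0 in all other libraries and passed the filter through TLI libraries of batch 1. The lists were chosen with earlier results of these data known, and the libraries are those that chose the members. Calls of these genes, here and between batches below, are therefore no independent support for the member levels. Of 80 erythroid genes outside the members, found in 6 lists, 75 passed the filter, and 28 were higher in TLI libraries and 0 lower. Over all genes 478 were called (2.44%), 333 of them higher (1.7%) and 145 lower (0.74%). The median log2 fold change of the 75 was 2.92, against 0.07 over all genes. The count fell to 0 without the batch term, when TLI libraries of both batches were averaged, and to 7 of 72 without TLI pool 1, an alternative chosen after seeing the data. With a library left out it ran from 3 (without untreated DC1a replicate 2) to 30, and it was 18 or fewer without any single untreated library, TLI DC1a replicate 1 or TLI DC2 replicate 1.

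Of 19 genes of the membrane and its skeleton, 10 were higher. Rhag, the partner of Rhd in the Rh complex, was 7.37 to 274 CPM (median 26.2) in TLI libraries of batch 1 and at most 0.105 CPM in untreated ones (edgeR adjusted p = 0.00985). The blood group protein Kel was 0.770 to 86.6 CPM against at most 0.235 CPM (edgeR adjusted p = 0.0104), and the water channel Aqp1 was 0.147 to 35.9 CPM against at most 0.235 CPM (edgeR adjusted p = 0.00912). Aqp1 thus overlapped between the groups, whereas Rhag and Kel did not.

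Among 17 enzymes and late red cell genes, 10 were higher. Car1, a carbonic anhydrase of red cells, was 4.56 to 577 CPM (median 208.5) in TLI libraries of batch 1 against at most 0.274 CPM in untreated ones (edgeR adjusted p = 0.000322). Tspo2, a membrane protein of erythroblasts, was 2.51 to 48.1 CPM against at most 0.285 CPM (edgeR adjusted p = 0.00889). The antioxidant enzyme Prdx2, which other cells also express, rose by a log2 fold change of 1.68 ± 0.27 (SE), from 80.5 to 440.0 CPM in untreated libraries to 417 to 1740 CPM (edgeR adjusted p = 0.00483). Without strand, its reads cannot be told from those of Rnaseh2a and Junb where these genes overlap it on the other strand.

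Of 13 transcription factors of the red cell lineage, 4 were higher. Klf1 was 7.91 to 200.9 CPM in TLI libraries of batch 1 and at most 0.188 CPM in untreated ones (edgeR adjusted p = 0.0107). Gata1 was 0.128 to 46.4 CPM against at most 0.501 CPM (edgeR adjusted p = 0.0220), so its groups overlapped. Gfi1b, a repressor needed for red cell and platelet precursors, was 0 to 84.9 CPM against at most 0.182 CPM (edgeR adjusted p = 0.0261), and Nfe2, a factor of the globin locus, was 2.36 to 57.5 CPM against 0 to 12.7 CPM (edgeR adjusted p = 0.0425).

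Of 17 haem and iron genes tested, many of which other cells also use, 3 were higher, all of them enzymes of the haem pathway. Fech, which inserts the iron, rose by a log2 fold change of 3.08 ± 0.68 (SE, edgeR adjusted p = 0.0263) and Alad by 2.62 ± 0.63 (SE, edgeR adjusted p = 0.0376). Tfrc, the transferrin receptor, was not called and was 14.0 to 158 CPM in TLI libraries of batch 1 and 11.7 to 132 CPM in untreated ones. The embryonic globins Hba-x, Hbb-y, Hbb-bh1 and Hbb-bh2 did not pass the filter on low counts. Hbq1b, an α-like globin gene, was higher, at 0.849 to 57.1 CPM against 0 to 5.83 CPM (edgeR adjusted p = 0.0234). None of 7 tested genes of erythropoietin signalling was called in edgeR, and 3 had an unadjusted p under 0.05. The smallest p values were those of the feedback inhibitors Cish, at 0 to 7.24 CPM against 0 to 0.424 CPM (edgeR adjusted p = 0.0923), and Socs3, at 3.49 to 12.1 CPM against 0.235 to 13.5 CPM (edgeR adjusted p = 0.181).

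**Figure D4:**
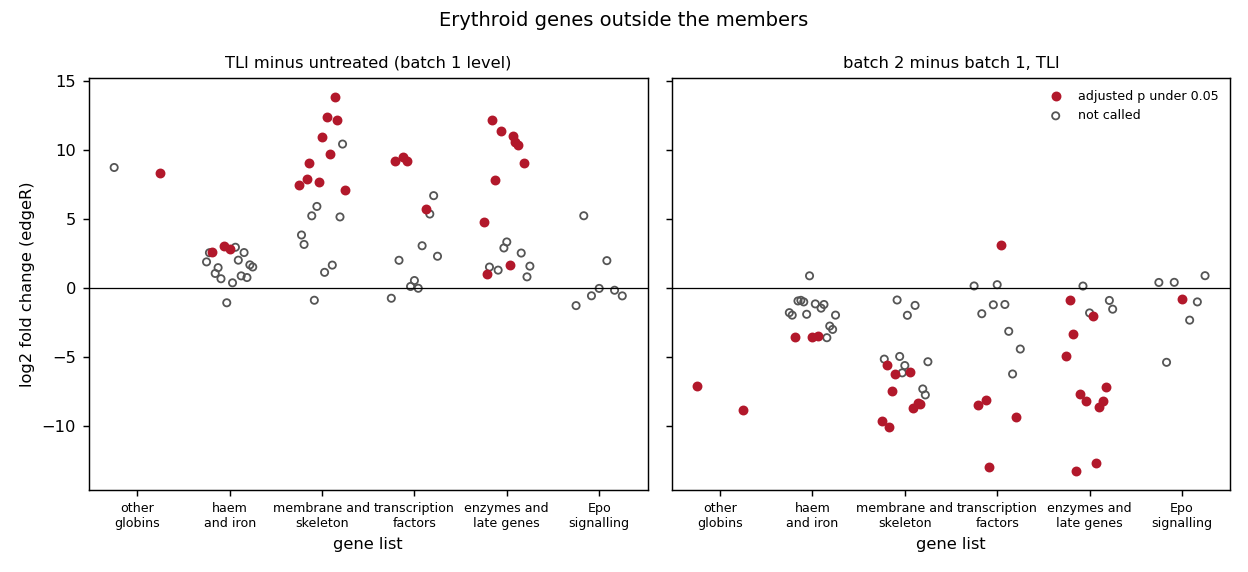
log2 fold change (edgeR) of the erythroid genes outside the members by list, for TLI minus untreated at the level of batch 1 (left) and for batch 2 minus batch 1 within TLI (right), with filled points for an adjusted p under 0.05. On the left 28 of 75 genes are called, all higher, and on the right 30 of 73 are called lower and 1 higher, where fitted values beyond about 5 belong to genes near 0 counts in a group and are no measure of size.

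Within a single population these genes did not pass the test in edgeR. In DC1a, DC1b, DC2 and DC3 cells, 0 of the 75 were called, 27 to 33 had an unadjusted p under 0.05, and DESeq2 called 23, 29, 19 and 21 of them higher. Over all genes, edgeR called 0.0102% in DC1a, 0.413% in DC1b, 0.0612% in DC2 and 0.0255% in DC3 cells. These shares do not apply to the DESeq2 counts, which have no share over all genes beside them and cannot be judged against it. Car1 had the smallest p in each population, with adjusted p values of 0.214 in DC1a, 0.0701 in DC1b, 0.0953 in DC2 and 0.134 in DC3 cells.

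Within TLI mice, the same genes were compared between batches, and many were lower in batch 2. Of 73 tested, 30 were lower and 1 higher, with 3085 of 16400 genes called (18.8%), 8.95% lower and 9.86% higher. The median log2 fold change of the 73 was -3.48, against -0.26 over all genes. Calls were spread over membrane and skeleton genes (9 of 19), enzymes and late genes (11 of 15), transcription factors (4 of 13), haem and iron genes (3 of 17), globins (2 of 2) and erythropoietin signalling (1 of 7). Car1 was at most 0.0893 CPM in batch 2 (edgeR adjusted p = 9.7e-05) and Aqp1 at most 0.0904 CPM (edgeR adjusted p = 0.000579), and Klf1 and Tal1 were at 0 in all 8 libraries. Lyl1, a factor of early blood cells, was the gene that was higher, at 10.9 to 47.8 CPM against 0.735 to 7.45 CPM (edgeR adjusted p = 0.000738). Its reads cannot be told from those of Nfix where Nfix overlaps it on the other strand. Marker genes moved with this contrast, with 5 of 7 dendritic cell genes lower (median log2 fold change -1.04), 5 of 7 T cell, 5 of 6 natural killer cell and 5 of 9 red pulp macrophage genes, and their part in it was not tested. Without TLI pool 1, 4 of 72 were lower, and without TLI DC2 replicate 1, 18 of 74. Pools are nested in batches, with 2 TLI pools each, so pool and batch cannot be told apart.

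Between the sorted populations, 0 to 3 of the 75 erythroid genes outside the members were called in each of the 8 comparisons, with 0.469% to 2.76% called over all genes, and the 4 genes called are given for their values. Prdx2 was higher in DC1a cells of TLI mice (log2 fold change 1.38 ± 0.29 SE, edgeR adjusted p = 0.0124), and in DC2 cells of untreated mice Flvcr1, a haem exporter, was higher by 3.43 ± 0.61 (SE, edgeR adjusted p = 0.00537), and Pim1, a kinase, by 1.26 ± 0.28 (SE, edgeR adjusted p = 0.0213). Ackr1, a chemokine-binding blood group protein, was also higher there (edgeR adjusted p = 0.0464), which rested on replicate 1. With the pool of mice as a block its adjusted p was 0.121, and without that library its fitted log2 fold change was -2.92. The limit of overlapping genes given above for Prdx2 holds here too, and also for Ackr1, which overlaps Cadm3.

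Across the 23 libraries, the genes most like the summed haemoglobin level included genes of the red cell lists. The measure was Pearson's correlation of log2 CPM among 14057 genes with a mean of 1 CPM or more, and it is a description, because libraries share pools and fall into separate sets. Among the first 10, the highest was Rhag at 0.908, with March8 (a ubiquitin ligase) at 0.895, Tspo2 at 0.884, Cd3e at 0.879, Kel at 0.875, Slc43a1 (an amino acid transporter) at 0.858, Trac at 0.855 and Gpsm2 at 0.848. Cd3e and Trac are T cell genes. The members gave 0.887 for Rhd, 0.867 for Alas2, 0.863 for Slc4a1 and 0.817 for Epor.

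Markers of some other blood cells were also higher in TLI libraries of batch 1, where haemoglobin was high. The 7 T cell genes summed to 94.9 to 594 CPM in TLI libraries of batch 1, 0.104 to 55.2 CPM in untreated ones and 4.04 to 38.96 CPM in batch 2, and 5 of 7 were called higher in TLI libraries. The 6 natural killer cell genes summed to 191 to 3927 CPM, 2.28 to 401 CPM and 0.241 to 89.4 CPM, with 4 of 6 called. Of the T cell genes Cd3e was at most 0.0814 CPM and Trac at most 0.104 CPM in untreated libraries. The highest T and natural killer cell sums were both in TLI DC3 replicate 1, which also held the highest haemoglobin share. Natural killer cell genes were highest in DC3 cells without TLI as well, at 401 and 235 CPM against at most 8.24 CPM in the other untreated libraries. Among untreated libraries, T cell sums and haemoglobin differed in order, and a link between them was not tested. The DC1a and DC2 libraries of untreated pool 1, highest in haemoglobin among untreated ones, had T cell sums of 1.05 and 2.12 CPM, and untreated DC3 replicate 2, the lowest in haemoglobin, had 55.2 CPM.

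Among TLI libraries, neutrophil and macrophage genes were highest in DC1b and DC2 cells. The 12 neutrophil genes summed to 21888 and 1481 CPM in TLI DC1b replicates 1 and 2 and 2359 CPM in TLI DC2 replicate 1, but to 6.72 and 14.1 CPM in TLI DC1a cells of batch 1. In batch 2 they summed to 1745 and 9275 CPM in DC1b cells and 227 and 110.5 CPM in DC2 cells. In DC1a and DC3 cells of batch 2 they summed to at most 12.7 CPM. DC1b cells had the highest haemoglobin share in batch 2, whereas in TLI pool 1 it was 11.1% in DC1a and 6.21% in DC1b cells. The neutrophil genes summed to 0.118 to 21.7 CPM in untreated libraries, and 4 of 12 were called higher in TLI libraries. The 10 red pulp macrophage genes summed to 1996 to 3139 CPM in the TLI DC1b and DC2 libraries of batch 1 and 96.7 to 136 CPM in the DC1a and DC3 ones, against 43.9 to 357 CPM in untreated libraries, with 5 of 10 called.

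**Figure D5:**
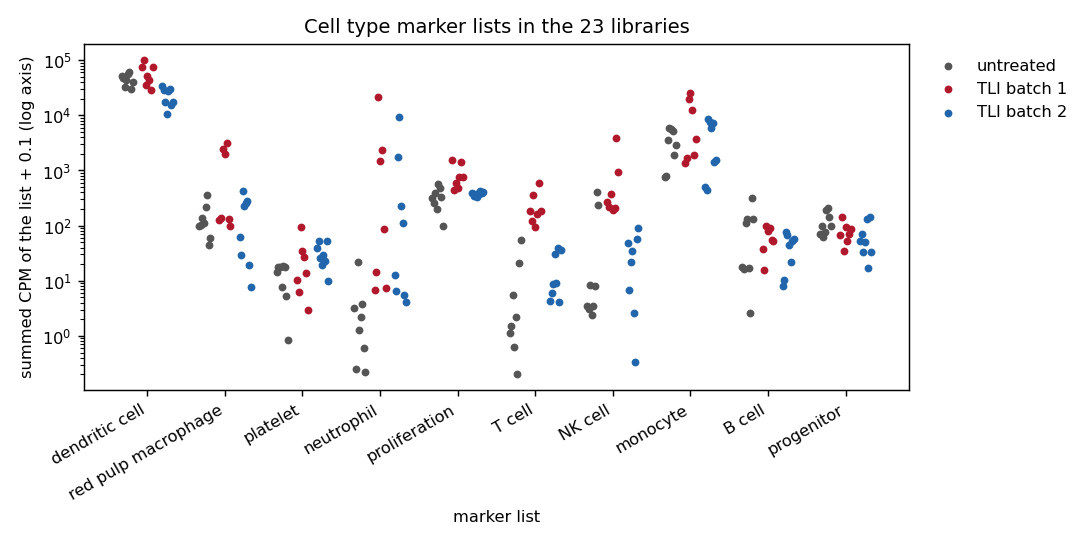
Summed CPM of each cell type marker list plus 0.1 (log axis) in the 23 libraries, with a point for each library colored by treatment and batch. T cell genes separate the 7 TLI libraries of batch 1 (94.9 to 594 CPM) from the others, whereas dendritic cell genes are high in every library.

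Of the remaining lists, proliferation genes summed to 451 to 1558 CPM in TLI libraries of batch 1, 99.8 to 561 CPM in untreated ones and 328 to 431 CPM in batch 2, with 3 of 8 called higher, among them Birc5 and Rrm2. Platelet genes had 1 of 8 called, Pf4, and monocyte genes 3 of 6. Dendritic cell genes (0 of 7), progenitor genes (0 of 7) and B cell genes (0 of 6) had no call in edgeR, with 4, 2 and 1 genes at an unadjusted p under 0.05. The part of these other cells in the haemoglobin counts was not tested. The study's methods describe lysis of red cells before dendritic cells were sorted for cell assays, and whether it preceded the sorts for sequencing is not given in the sources used here.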

How the data were processed

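RNA of sorted spleen dendritic cells was made into cDNA with the SMARTseq v4 UltraLow kit and into libraries with KAPA HyperPlus. The authors trimmed reads with Trimmomatic, aligned them with HISAT2 to GRCm38 and obtained gene values with StringTie on the Ensembl release 84 annotation. The deposited table holds expected counts, estimated by the authors from transcript coverage and not normalized, which were used as whole numbers here. Of 47729 gene identifiers, 47224 had a symbol. The 23 libraries were grouped by the labels' treatment and population, with batch as labelled. Nothing beyond the pool number ties libraries to mice, so p-values measure the spread between these libraries. Libraries of 1 pool share mice, so the pool was also fitted as a block between populations. Over all genes tested, deviations of libraries of a pool from their group means correlated at -0.02 to 0.14. This does not hold for haemoglobin, which was higher in TLI pool 1 than in TLI pool 2 in each population that both had. Tests between treatments counted libraries of a pool as separate, so their p-values do not measure the spread between pools.

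Counts were fitted with edgeR 4.0.16 in R 4.3.3 (filterByExpr, TMM factors of 0.840 to 1.18, quasi-likelihood test, terms for group and batch), with Benjamini-Hochberg adjustment over all 19597 genes tested (16400 for batches within TLI) and a threshold of 0.05. CPM were counts per 1000000 total counts, and the SE of a log2 fold change was derived from its F statistic. A count of 0 allows up to 3 counts, and such limits cover counting error only. Intermediate tables used Python 3.11.15, and the script was tested on simulated counts. The members, lists and tests were chosen with earlier results of these data known. Genes named were the members, up to 4 called genes per list and comparison by smallest p (up to 2 where an erythroid list had none), and the 10 genes most like summed haemoglobin. A few genes that this rule names are not reported here. Chosen after their values were seen were Tfrc, the embryonic globins, Lyl1, Tal1 and genes singled out within 1 population. Alternatives were DESeq2 1.42.0, its scaling, other filters, haemoglobin left out of the totals, no batch term, batch 1 alone, the pool number as a block, and libraries left out. Promoters came from RefSeq.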

Additional observations from a re-analysis of the deposited data

Results flagged for a closer look

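In the 4 TLI DC3 libraries, replicate 1 lay far above the other 3. Its summed haemoglobin level was 132688 CPM, and the next library had 19174 CPM. Its levels were 45168 CPM for Hba-a1, 36755 CPM for Hba-a2, 36953 CPM for Hbb-bs and 13811 CPM for Hbb-bt. In the 4 TLI DC1a libraries, replicate 1 lay far above the others for Rhd at 613 CPM, next to 95.2 CPM, and for Epor at 16.7 CPM, next to 2.57 CPM. The gap, divided by the range of its group, was over Dixon's 95% critical value in 7 of 27 groups of values. This is a description, since these values chose the members, the 5 haemoglobin values depend on each other, and each group of 4 holds 2 libraries of each batch, which differed in level. Chance gives about 1 in 20 only for libraries of 1 kind. Both libraries singled out came from TLI pool 1.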

How the results depend on the processing

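Calls of erythroid genes outside the members depended on the libraries and on the model. For TLI against untreated over the 4 populations (28 higher), DESeq2 gave 44, a minimum of 10 counts in every library 5 of 21 tested, no batch term 0 and the omission of TLI pool 1, chosen after seeing the data, 7. Leaving out 1 library gave 3 to 30, with 3, 6, 8, 10, 10, 11, 12 and 14 without untreated DC1a replicate 2, DC1b 1, DC1a 1, DC3 1, DC1b 2, DC3 2, DC2 2 and DC2 1, 15 without TLI DC2 replicate 1 and 18 without TLI DC1a replicate 1. DESeq2's scaling gave 29, no filter 35, haemoglobin left out of the totals 28, batch 1 alone 22 and the pool number as a replicate block 22. Within DC1a, DC1b, DC2 and DC3 cells (0 each), DESeq2 gave 23, 29, 19 and 21, no filter 3, 4, 4 and 2, and the replicate block 1 in DC1b, while omitting 1 library gave 0 to 1 in DC1b. For batch 2 against batch 1 (30 lower), DESeq2 gave 52, the strict minimum 7 of 22, omission of TLI pool 1 4, and omission of 1 library 18 (TLI DC2 replicate 1) to 34. The cause was not tested, apart from the fewer genes under the strict minimum.

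Member calls between populations (0) became 3 in untreated and 1 in TLI mice with DESeq2, 1 and 1 with no filter, and remained 0 with the pool as a replicate block. The DESeq2 and no-filter counts, here and within single populations above, have no share over all genes beside them. Without untreated DC2 replicate 1, the fitted log2 fold change of Ackr1 in untreated DC2 cells was -2.92, and other omissions gave up to 9.73. Without TLI pool 1, that of Hbq1a between batches was 0.61. The log2 ratio of mean haemoglobin CPM in DC2 cells over TLI libraries of both batches was 3.85 and ran from 0.51 (without TLI DC2 replicate 1, or TLI pool 1) to 7.84 (without untreated DC2 replicate 1). Ranges on leaving out 1 library were 3.29 to 8.01 in DC1a, 6.88 to 8.39 in DC1b and 6.07 to 9.41 in DC3 cells. Over all genes, calls for TLI against untreated were 478, against 2290 by DESeq2, 128 with no batch term, 242 in batch 1 alone and 239 with the replicate block.

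Between treatments, pools of the same number hold different mice, so the number does not pair them. Between populations, where libraries of a pool share mice, the pool as a replicate block ended the call of Ackr1 (adjusted p = 0.121), kept those of Prdx2, Flvcr1 and Pim1, and lowered all calls in TLI DC2 cells from 465 to 261. No paired fit was made for the batches, because pools are nested in them. Low counts limit Alas2, Rhd, Slc4a1 and Epor outside TLI batch 1.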
